A study of Danio rerio with 14 samples.

Results

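Livers of overfed zebrafish heterozygous for ahcy (ahcy+/-, 2 arrays, numbered 1 and 4 in the labels) were set against livers of ahcy+/- zebrafish on the regular diet (3 arrays, numbered 3, 7 and 8). The 5 arrays were chosen by sample title alone and are 5 of the 14 liver arrays of the series. The other 9 hold livers of wild-type fish (ahcy+/+), 5 overfed and 4 on the regular diet, and they enter here for the shared estimate of the spread and for the comparison of the diet difference between genotypes. All fish were adults maintained at 28 °C, and each array carried liver RNA on a 1-colour Affymetrix zebrafish array. For a month, 1 tank with both genotypes was given food in excess and 1 tank with both genotypes a typical amount. Diet and tank therefore cannot be told apart, and p-values measure the spread among fish within tanks. The labels do not say what the mutant ahcy allele does to the gene product, nor the sex of any fish. Whether a liver sample was pooled is not stated.

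The gene ahcy encodes adenosylhomocysteinase, the enzyme that removes S-adenosylhomocysteine, the product left after S-adenosylmethionine has given up its methyl group. The liver carries most of the body's methylation load, and it is also the organ that stores, burns and exports the lipid and sugar taken in with food. Several of the genes described here encode hydroxylases that use oxygen and 2-oxoglutarate. One branch of that family, the prolyl hydroxylases of the EGLN group and the asparaginyl hydroxylase HIF1AN, marks or silences the hypoxia-inducible transcription factors (HIF) as long as oxygen is present. Another branch hydroxylates prolines and lysines of newly made collagen.

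The values are the authors' log2 expression levels per probe set. Control probe sets were left out, and a probe set was tested if it lay above 4 (log2) on at least 2 arrays, which left 15134. Array medians lay between 5.96 and 6.02 in overfed ahcy+/- livers and between 6.06 and 6.12 in regular-diet ahcy+/- livers, and centring each array on its median raised every diet difference in ahcy+/- by 0.11. The median difference over all tested probe sets was -0.09 as deposited and 0.01 after centring, so that small differences are read against this shift. The first principal component over the 14 arrays held 30.1% of the variance. On it the overfed ahcy+/- arrays scored 13.99 (array 1) and 30.89 (array 4), against -39.24 to -16.79 for the regular-diet ahcy+/- arrays, and array 1 lay below all 5 overfed ahcy+/+ arrays, which scored 21.64 to 37.38.

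The labelled tissue was checked on its defining markers, which were high on all 5 arrays. The mean level of 10 hepatocyte markers was 13.45 and 13.49 on overfed arrays 1 and 4 and 13.22, 13.21 and 13.26 on regular-diet arrays 3, 7 and 8. The fatty acid binding protein gene of liver, fabp10a, stood at 14.16 and 14.17 in overfed livers and at 14.24, 14.22 and 14.20 in regular-diet livers. Exocrine pancreas markers also stood above the array median on all 5 arrays. Intestine markers did so on all but overfed array 4, where their mean was 5.71 against an array median of 5.96. The mean of 12 exocrine pancreas enzymes was 12.59 and 7.34 on overfed arrays 1 and 4, against 13.30, 11.49 and 12.48 on the regular-diet arrays, so overfed array 4 held far less of them than the other 4. The mean of 11 intestine markers was 6.95 and 5.71 on the overfed arrays, against 6.32, 10.24 and 8.01 on regular-diet arrays 3, 7 and 8, with the highest level on array 7. The mean of 6 vitellogenin and oestrogen-response genes was 10.51 and 7.52 on the overfed arrays, against 6.56, 6.64 and 6.93 on the regular-diet arrays. In bulk tissue, fewer cells of a type and less RNA per cell cannot be told apart.

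**Figure D1:**
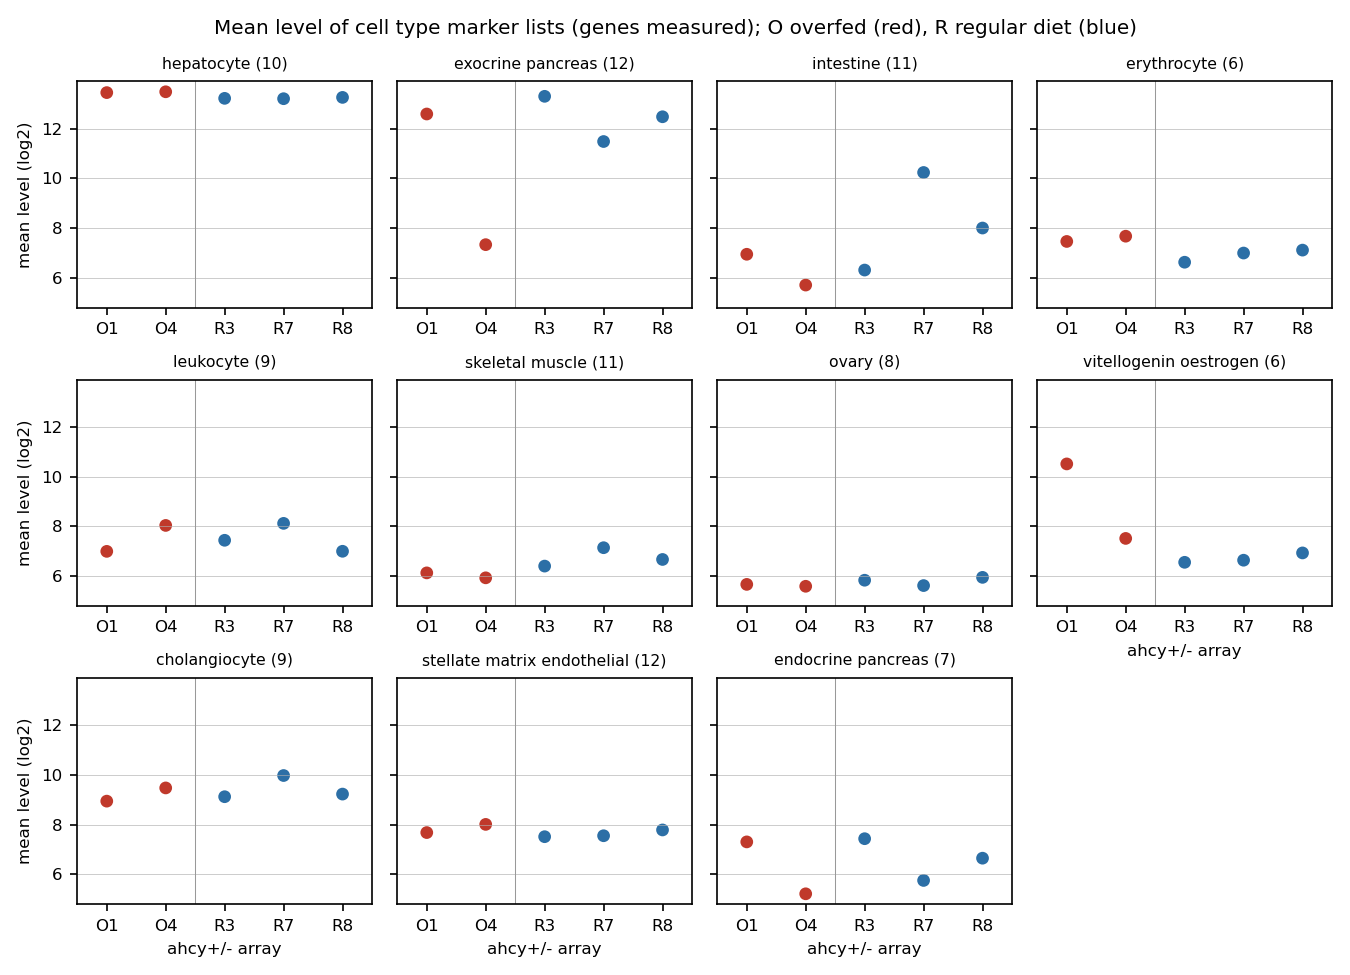
Mean log2 level of each cell type marker list on the 5 ahcy+/- arrays, with overfed arrays 1 and 4 (O1 and O4, red) left of regular-diet arrays 3, 7 and 8 (R3, R7 and R8, blue). Hepatocyte markers lie between 13.21 and 13.49 on all 5 arrays, whereas exocrine pancreas markers stand at 7.34 on O4, intestine markers reach 10.24 on R7 and vitellogenin and oestrogen-response genes reach 10.51 on O1.

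The transcript of ahcy itself was checked first, since it is the gene that the genotype names. It stood at 13.29 ± 0.06 (SD, n = 2) in overfed and 13.26 ± 0.07 (SD, n = 3) in regular-diet ahcy+/- livers, a log2 difference of 0.03. An exact 2-sided permutation test over these 5 arrays gave p = 0.8, and with 10 possible splits it cannot go below 0.2.

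Overfed ahcy+/- livers held more transcript of 4 hydroxylases that use oxygen and 2-oxoglutarate. They held less of a vitamin D hydroxylase, an apolipoprotein D gene and a gene related to a mammalian regulator of fat synthesis. The prolyl hydroxylase gene egln3 was 13.2-fold higher and the collagen prolyl hydroxylase gene p4ha1b 4.69-fold higher, while apoda.2 was 22.2-fold and cyp2r1 9.01-fold lower. In limma, the adjusted p was under 0.05 for 15 of 15134 probe sets (0.0991%), 10 of them higher (0.0661%) and 5 lower (0.033%) in overfed livers. At an unadjusted p under 0.05 there were 2145 (14.2%), 953 higher (6.3%) and 1192 lower (7.88%). The 15 comprise 8 higher and 5 lower genes and 2 higher probe sets assigned to no gene. The 4 hydroxylase genes (egln3, hif1an, p4ha1b and plod1a) are among the 8, a grouping made after their values were seen. After centring the arrays 64 probe sets passed, 58 higher and 6 lower, and after quantile normalization 31, 23 higher and 8 lower. A fit of the 5 ahcy+/- arrays alone called none (1768 at an unadjusted p under 0.05 in limma).

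The number of calls depended on single arrays of both genotypes. Without overfed array 4 none passed (1335 at an unadjusted p under 0.05 in limma), and without overfed array 1 there were 4 calls, of which erf was the only one among the 15. Without regular-diet ahcy+/- arrays 3, 7 and 8 there were 9, 10 and 41. Of the ahcy+/+ arrays, which only lend their spread, leaving out regular-diet array 2, 5 or 6 or overfed array 2 gave 9 calls, overfed array 7 gave 28 and regular-diet array 9 gave 91. All 15 kept their sign in each of these fits, but that outcome was fixed in advance. For each of the 15 both overfed arrays lay beyond all regular-diet ahcy+/- arrays, and leaving out an ahcy+/+ array does not change the ahcy+/- means. Of the 13 named genes, 8 passed in every fit that left out 1 array and kept both overfed ahcy+/- arrays. These were egln3, p4ha1b, plod1a, tiparp, erf, cyp2r1, apoda.2 and mid1ip1l. The other 5 (hif1an, limk2, slc35f6, rgcc and trim47) passed in 4 or 5 of the 14 fits. Their highest adjusted p was 0.174 for hif1an, 0.196 for limk2 and 0.174 for slc35f6, each without overfed array 1, and 0.2 for rgcc and 0.254 for trim47 without overfed array 4.

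**Figure D2:**
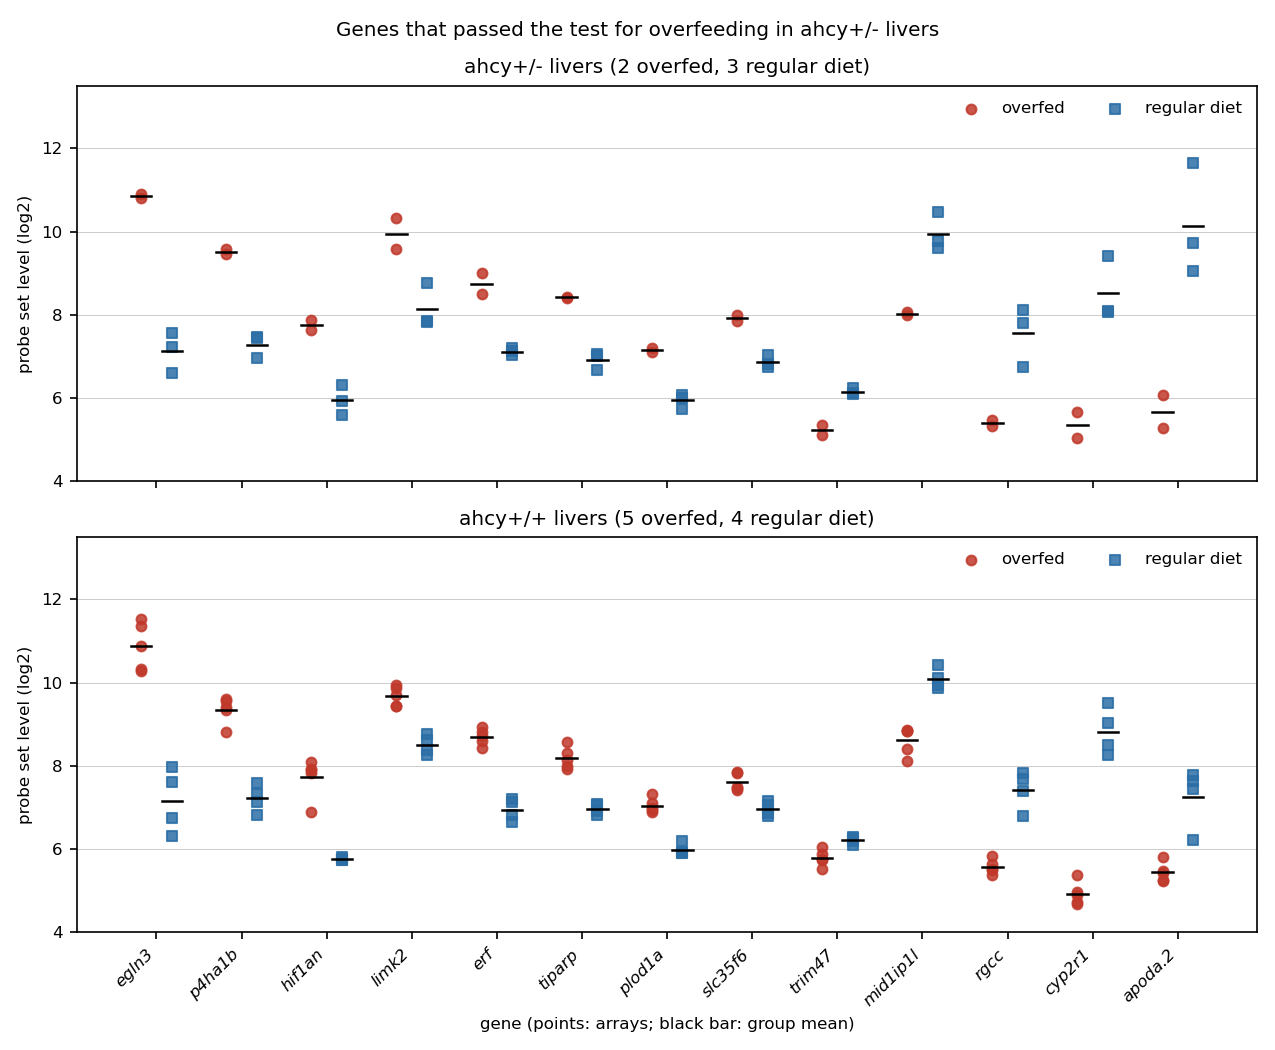
Log2 level of the 13 named genes that passed in ahcy+/- livers, on every ahcy+/- array (top) and every ahcy+/+ array (bottom), with overfed arrays as red circles left of regular-diet arrays as blue squares and the group mean as a black bar. In ahcy+/- livers both overfed arrays lie above all regular-diet arrays for the first 8 genes and below them for the last 5, and apoda.2 stands higher in regular-diet ahcy+/- livers (9.04 to 11.66) than in regular-diet ahcy+/+ livers (6.21 to 7.77).

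Among the hydroxylases of the oxygen-sensing branch, egln3 encodes an enzyme that marks HIF alpha subunits for destruction. Its level was 10.81 and 10.89 on overfed arrays 1 and 4, against 7.22, 6.59 and 7.57 on regular-diet arrays 3, 7 and 8. The overfed values lay close together and far above the highest regular-diet value, and the log2 difference was 3.72 ± 0.48 (SE; limma, adjusted p = 0.00979). The asparaginyl hydroxylase gene hif1an stood at 7.87 and 7.64 in overfed and at 5.59, 6.32 and 5.92 in regular-diet livers. Its groups did not overlap, with a difference of 1.81 ± 0.29 (SE; limma, adjusted p = 0.0346). A further prolyl hydroxylase gene, egln1b, had 9.95 and 9.49 in overfed livers and 7.15, 8.32 and 8.19 in regular-diet livers. It differed by 1.83 ± 0.42 without passing (limma, adjusted p = 0.112).

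The targets of these enzymes, the HIF subunits, were measured in the same list. Of 15 listed oxygen-sensing genes 9 were measured. Of these, 8 were higher (36.8% of all genes were) and 1 lower, 2 passed (egln3 and hif1an), and the median difference was 0.91, against -0.10 over the 8699 genes tested, of which 0.149% passed. The HIF alpha subunit gene epas1b had 8.67 and 8.59 in overfed and 8.09, 7.49 and 7.58 in regular-diet livers, a difference of 0.91 that did not pass (limma, adjusted p = 0.199). The subunit genes hif1ab, hif1al, hif1al2 and epas1a differed by 0.09, 1.21, 0.36 and 0.25, and the dimerization partner gene arnt2 by -0.24, with overlapping groups for all but arnt2. A list of genes that HIF is known to induce did not shift as a whole. That list held none of the genes that passed, egln3 and p4ha1b among them, so its counts do not cover these. Of 47 listed, 32 were measured, 15 higher and 17 lower, none passed, and the median difference was -0.03, which turned to 0.08 after centring. Their levels went both ways, with ddit4 (2.97), bnip3lb (0.80) and bhlhe40 (2.21) higher on both overfed arrays than on any regular-diet array and the glycolytic aldolase gene aldoab (-2.44) lower on both, all without passing.

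The collagen branch held the gene with the smallest p of the comparison. The alpha subunit gene of the collagen prolyl hydroxylase, p4ha1b, had 9.58 and 9.45 in overfed livers, against 7.46, 6.95 and 7.44 in regular-diet livers. It rose by 2.23 ± 0.26 (SE; limma, adjusted p = 0.00979). The collagen lysyl hydroxylase gene plod1a stood at 7.11 and 7.20 in overfed and at 6.0, 5.73 and 6.08 in regular-diet livers, a rise of 1.22 ± 0.16 with the same adjusted p in limma. Other genes of collagen modification did not pass, 6 of the 8 measured (0.149% of all genes passed), and the median of the list was 0.11. Among them, and named after their values were seen, the prolyl hydroxylase gene p4ha2 differed by 0.21 and the lysyl hydroxylase gene plod3 by 0.03, while the collagen chaperone gene serpinh1b differed by -0.58. Of 12 measured genes of matrix, stellate and endothelial cells 5 were higher and 7 lower, with a median of -0.06 that turned to 0.05 after centring, and none passed. Among them tgfbi, a secreted matrix protein gene, had 10.26 and 10.33 in overfed and 6.88, 6.75 and 8.48 in regular-diet livers. The metalloproteinase inhibitor gene timp2a had 9.22 and 9.43 in overfed and 7.60, 7.20 and 8.74 in regular-diet livers. Both pairs of groups were apart without passing (differences of 2.93 and 1.48; limma, adjusted p = 0.152 and 0.221). In the other direction, tagln of the same list differed by -1.09 with overlapping groups (limma, adjusted p = 0.303). Of the 12 genes, 4 lay above every regular-diet array (13.0% of all genes did) and 2 below (21.4% did).

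Regulators of transcription and signalling moved in both directions. The gene erf, an ETS-family repressor, had 8.503 and 8.994 in overfed and 7.03, 7.19 and 7.12 in regular-diet livers, and rose by 1.64 ± 0.20 (SE; limma, adjusted p = 0.00979). The gene tiparp encodes an ADP-ribosyltransferase that the aryl hydrocarbon receptor induces. It had 8.40 and 8.43 in overfed and 6.67, 7.02 and 7.06 in regular-diet livers, a rise of 1.497 ± 0.19 (SE; limma, adjusted p = 0.00979). The best-known target of that receptor, cyp1a, named after its values were seen, differed by 0.41 with overlapping groups (12.39 and 13.02 in overfed, 12.64, 12.15 and 12.09 in regular-diet livers). The receptor gene ahr2 differed by 0.69 and ahr1a by -0.84, neither passing. Of the 6 measured genes of this response 1 passed (0.149% of all genes did) and 3 were higher (36.8% of all genes were). In this list 2 genes lay above every regular-diet array (13.0% of all genes did) and 2 below (21.4% did).

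The kinase gene limk2, whose product acts on the actin-severing protein cofilin, had 10.33 and 9.57 in overfed and 7.83, 7.85 and 8.75 in regular-diet livers, and rose by 1.81 ± 0.29 (SE; limma, adjusted p = 0.0346). The transporter-family gene slc35f6 rose by 1.06 ± 0.17 on 1 probe set (8.0 and 7.85 in overfed, 6.74, 7.02 and 6.82 in regular-diet livers; limma, adjusted p = 0.0346). Its other probe set differed by 0.04 (limma, adjusted p = 0.926), so the 2 probe sets of slc35f6 disagree. The gene trim47, of the tripartite-motif family, had 5.34 and 5.10 in overfed and 6.23, 6.09 and 6.13 in regular-diet livers, and fell by 0.93 on the log2 scale (SE 0.15; limma, adjusted p = 0.0346).

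The largest decrease among the genes that passed was that of apoda.2, which encodes an apolipoprotein D, a secreted lipocalin that carries small lipids. Its level was 6.06 and 5.28 on overfed arrays 1 and 4, against 11.66, 9.04 and 9.73 on regular-diet arrays 3, 7 and 8, a difference of -4.47 ± 0.61 (SE; limma, adjusted p = 0.0124). The regular-diet ahcy+/- values all lay above the 4 regular-diet ahcy+/+ values, which ran from 6.21 to 7.77, while the overfed ahcy+/+ values ran from 5.24 to 5.81. In ahcy+/+ livers the difference was -1.82. Its interaction with genotype was -2.66 ± 0.76 (SE), with an unadjusted p of 0.00389 that did not survive adjustment over all probe sets (limma, adjusted p = 0.9996). Of 18 measured apolipoprotein and lipoprotein secretion genes apoda.2 was the only one that passed (0.149% of all genes did). In this list 8 were higher and 10 lower.

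The vitamin D 25-hydroxylase gene cyp2r1 had 5.67 and 5.04 in overfed and 8.10, 9.40 and 8.07 in regular-diet livers, a difference of -3.17 ± 0.42 (SE; limma, adjusted p = 0.00979). Of the 25 measured genes of xenobiotic and vitamin D metabolism it was the only one that passed (0.149% of all genes did). The vitamin D 24-hydroxylase gene cyp24a1 differed by -0.65 with overlapping groups, a gene named after its value was seen. The drug-metabolizing gene cyp3a65 (-0.91) and the sulfotransferase gene sult6b1 (-2.31) were lower and cyp2p6 (1.0003) higher on both overfed arrays than on any regular-diet array, without passing (limma, adjusted p = 0.139 to 0.152).

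The gene mid1ip1l is related to a mammalian protein that activates acetyl-CoA carboxylase, the first enzyme of fatty acid synthesis. It had 8.06 and 7.99 in overfed and 10.46, 9.60 and 9.76 in regular-diet livers, and fell by 1.92 on the log2 scale (SE 0.28; limma, adjusted p = 0.0162). Other fat synthesis genes went both ways: of 16 measured 11 were higher and 5 lower. Of these, mid1ip1l was the only one that passed (0.149% of all genes did). The phosphatidate phosphatase gene lpin1a had 7.34 and 7.13 in overfed and 8.21, 8.20 and 8.02 in regular-diet livers (-0.91; limma, adjusted p = 0.0787). The carboxylase gene acaca itself had 12.52 and 12.37 in overfed and 10.89, 10.75 and 12.27 in regular-diet livers (1.14; limma, adjusted p = 0.289), and was named after its values were seen.

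Genes of DNA replication and the cell cycle were lower as a group. Of 49 measured, 46 were lower and 3 higher, with a median of -0.44 against -0.10 over all genes, and 30 lay below every regular-diet array on both overfed arrays (21.4% of all genes did). At an unadjusted p under 0.05, 23 were lower (8.63% of all genes were). Centring the arrays on their medians left the list's median at -0.33. The mean level of the list was 6.30, 6.40 and 6.38 on regular-diet arrays 3, 7 and 8. On overfed arrays 1 and 4 it was 5.80 and 5.73, under the medians of these arrays (6.02 and 5.96), so many members were weakly expressed. The only member that passed was rgcc, a regulator of cell cycle kinases (0.149% of all genes passed). It had 5.47 and 5.32 in overfed and 8.11, 7.81 and 6.75 in regular-diet livers (-2.16 ± 0.35, SE; limma, adjusted p = 0.0346). The ribonucleotide reductase gene rrm1 differed by -0.80, the polymerase gene pola1 by -0.57 and the replicative helicase gene mcm3 by -2.11, none passing (limma, adjusted p = 0.108 to 0.124). The level of mcm3 was 5.17 and 5.40 in overfed and 6.61, 8.32 and 7.26 in regular-diet livers. Markers of some other tissues also stood lower. Of the exocrine pancreas markers 12 of 12 and of the skeletal muscle markers 11 of 11 were lower, with medians of -2.41 and -0.70. Intestine markers were lower for 10 of 11. Erythrocyte markers went the other way, with 5 of 6 higher and a median of 0.45. Leukocyte markers (5 of 9 higher) and cholangiocyte markers (4 of 9 higher) were mixed. None of the 12 pancreas markers kept the groups apart. Of the 11 muscle markers 6 lay below every regular-diet array (54.5%, against 21.4% of all genes). Of the 11 intestine markers 3 lay below (27.3%) and 1 above (9.1%, against 13.0% of all genes). On overfed array 1, where the pancreas list had a median of 0.22 above the regular-diet mean, the replication list stood at -0.38. On overfed array 4, where the pancreas list stood at -5.09, the replication list stood at -0.51. The intestine list was below the regular-diet mean on both, at -1.23 on array 1 and -2.56 on array 4. So was the skeletal muscle list, at -0.56 and -0.84 in the same order. The part of these tissues in the median of the replication list was not tested.

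Of the 25 pathway lists, sterol synthesis had the highest median. Of 27 listed, 12 were measured, 10 higher and 2 lower, with a median of 1.13; none passed. The feedback regulator gene insig1 had 11.02 and 11.71 in overfed and 10.43, 9.25 and 8.85 in regular-diet livers (1.85; limma, adjusted p = 0.12). The farnesyl diphosphate synthase gene fdps had 8.27 and 8.68 in overfed and 4.59, 5.44 and 4.55 in regular-diet livers, and the squalene synthase gene fdft1 had 9.40 and 9.75 in overfed and 6.56, 7.07 and 7.13 in regular-diet livers. For both genes the groups were far apart (3.61 and 2.66). The SE, which draws on all 14 arrays, was 1.48 and 1.19, and the adjusted p was 0.302 and 0.34 in limma. In ahcy+/- livers the SD of fdps and fdft1 was 0.29 and 0.25 after overfeeding and 0.50 and 0.32 on the regular diet. In ahcy+/+ livers it was 2.86 and 2.33 after overfeeding and 0.49 and 0.31 on the regular diet. For cyp51, another enzyme of the pathway, the probe set that represented the gene differed by -0.29. Another cyp51 probe set had 8.22 and 8.13 in overfed and 2.90, 5.84 and 5.59 in regular-diet livers (3.40), so the probe sets of cyp51 disagree.

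**Figure D3:**
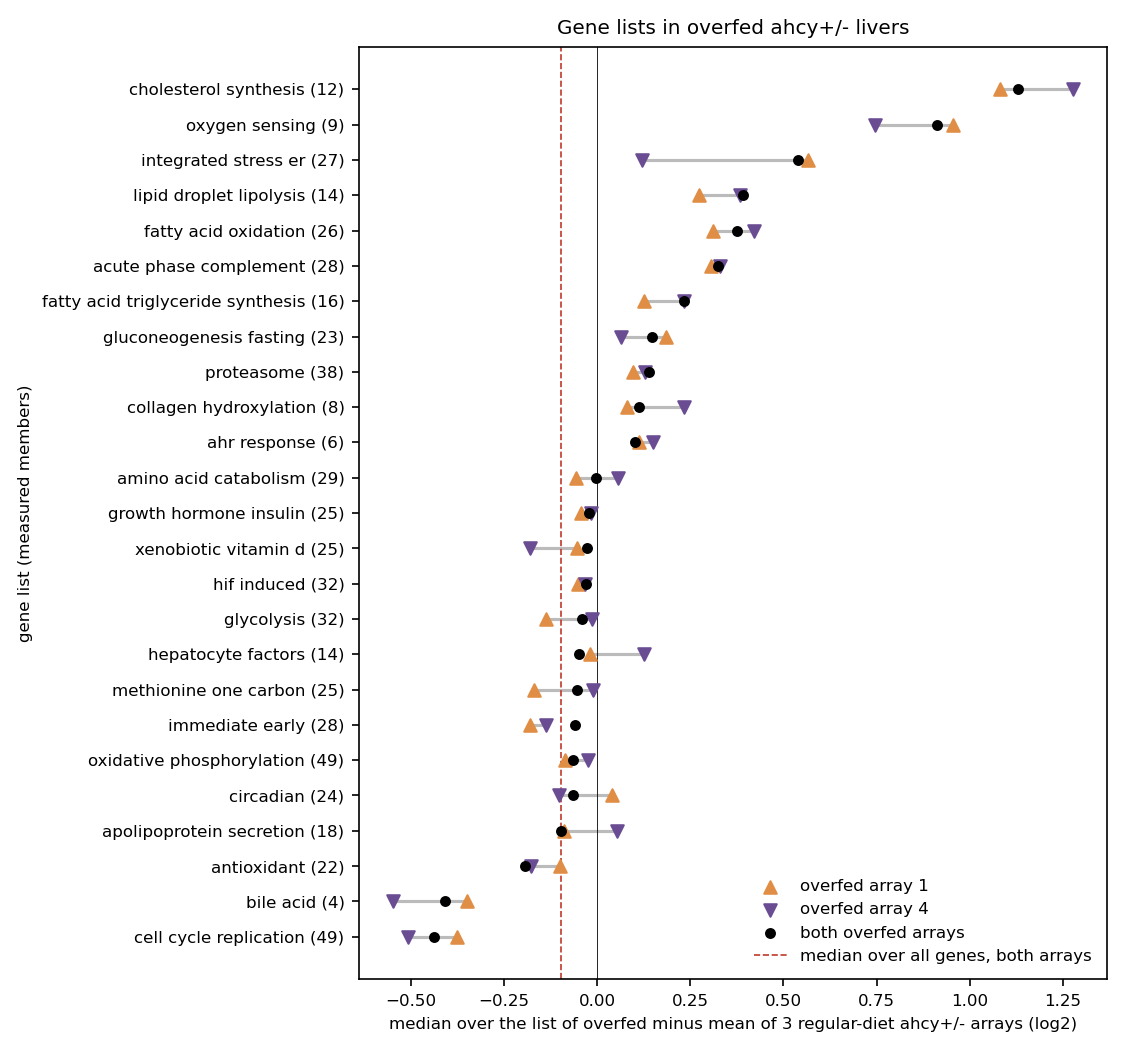
Median log2 difference of each of the 25 pathway lists between overfed ahcy+/- livers and the mean of the 3 regular-diet ahcy+/- livers, for overfed array 1 (upward triangles), overfed array 4 (downward triangles) and both (black dots), with the number of measured members in parentheses. Among these lists, which leave out cell type markers, sterol synthesis (1.13), oxygen sensing (0.91) and the stress list (0.54) stand highest and cell cycle and replication lowest (-0.44), and the dashed line is the median over all genes (-0.10).

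Genes that burn fat were mostly higher. Of 26 measured fatty acid oxidation genes 23 were higher and 3 lower, with a median of 0.37, and 17 lay above every regular-diet array (13.0% of all genes did). Hepatocyte markers stood higher too, with a median of 0.32 and 9 of 10 above every regular-diet array, the exception being fabp10a (-0.05). None of the oxidation genes passed, and 7 of them were higher at an unadjusted p under 0.05 in limma (6.64% of all genes were). The genes of the mitochondrial trifunctional protein were among them: hadhb had 8.67 and 8.62 in overfed and 7.52, 7.88 and 7.41 in regular-diet livers (1.04), and hadhaa differed by 0.72. The peroxisomal gene ehhadh was lower on both overfed arrays (-0.80; 9.61 and 9.51 in overfed, 10.39, 10.33 and 10.36 in regular-diet livers; limma, adjusted p = 0.112). In the lipid droplet and lipolysis list 11 of 14 were higher and none passed. Its fatty acid transporter gene slc27a6 had 8.74 and 8.41 in overfed and 6.29, 6.29 and 7.47 in regular-diet livers (1.89; limma, adjusted p = 0.0787). The lipase inhibitor gene angptl4 had 11.67 and 9.24 in overfed and 6.28, 7.21 and 10.16 in regular-diet livers, with overlapping groups and a difference of 2.57.

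Genes that make glucose and break down amino acids were mixed. The tyrosine aminotransferase gene tat had 12.29 and 12.08 in overfed and 11.49, 10.98 and 11.24 in regular-diet livers (0.95; limma, adjusted p = 0.0749). The mitochondrial phosphoenolpyruvate carboxykinase gene pck2 differed by 0.80 and the glucose-6-phosphatase gene g6pc1a.2 by 0.64, both without overlap and without passing. The transcription factor gene cebpa had 6.40 and 7.41 in overfed and 10.65, 9.73 and 8.02 in regular-diet livers (-2.56; limma, adjusted p = 0.199). Over the whole gluconeogenesis and fasting list 14 of 23 were higher and none passed, and of 29 amino acid catabolism genes 13 were higher and 16 lower. Glycolysis genes had 14 of 32 higher, and oxidative phosphorylation genes 19 of 49, with medians of -0.04 and -0.07 that turned to 0.07 and 0.04 after centring.

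In the methionine cycle, to which ahcy belongs, 11 of 25 measured genes were higher and 14 lower, with a median of -0.05 that turned to 0.05 after centring, and none passed. The cystathionine synthase gene cbsb, which draws homocysteine out of the cycle, had 10.22 and 9.88 in overfed and 8.69, 8.56 and 9.25 in regular-diet livers (1.22; limma, adjusted p = 0.0847). The adenosine kinase gene adka, whose product clears the adenosine that adenosylhomocysteinase releases, had 11.34 and 11.42 in overfed and 10.43, 10.58 and 10.80 in regular-diet livers (0.78; limma, adjusted p = 0.104). The maintenance DNA methyltransferase gene dnmt1 differed by -0.61 and the spermine synthase gene sms by -0.36. These 4 genes, which have the smallest p of the list, lay apart on both overfed arrays without passing. Over the list, 5 of 25 lay above every regular-diet array (20.0%, against 13.0% of all genes). Another 7 lay below (28.0%, against 21.4% of all genes).

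Stress, immune and growth lists gave values and no calls, apart from erf in the immediate early list. In the list of the integrated stress response and endoplasmic reticulum chaperones 20 of 27 were higher, with a median of 0.54, which was 0.56 on overfed array 1 and 0.12 on overfed array 4. The mTOR inhibitor gene ddit4 had 7.91 and 9.91 in overfed and 5.44, 6.13 and 6.25 in regular-diet livers (2.97; limma, adjusted p = 0.112). The 2 overfed livers differed from each other in ddit4 by more than the 3 regular-diet livers did. Of 28 acute phase and complement genes 23 were higher, with a median of 0.32, and 19 lay above every regular-diet array (13.0% of all genes did), among them serping1 (0.71) and c4b (0.99). Another 2 lay below (7.14%, against 21.4% of all genes), among them cfd (-0.99). The hepatocyte markers had the same median, 0.32, and 9 of 10 lay above every regular-diet array, the exception being fabp10a (-0.05). That marker list itself holds plasma protein genes, such as fga, fgb and fgg, so it is not a separate reference for this list. In the proteasome list 29 of 38 were higher, with a median of 0.14. Of 28 immediate early genes 12 were higher, and mycb, a Myc transcription factor gene, had 5.43 and 6.11 in overfed and 10.38, 10.98 and 8.29 in regular-diet livers. Its difference of -4.11 ± 0.79 (SE) had an adjusted p of 0.0787 in limma.

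Of 25 growth hormone and insulin genes 11 were higher and 14 lower, with a median of -0.02 that turned to 0.09 after centring. The growth hormone feedback gene cisha had 5.95 and 7.10 in overfed and 7.64, 8.31 and 7.68 in regular-diet livers (-1.35; limma, adjusted p = 0.213), and the acid-labile subunit gene igfals differed by 0.91. Of 24 circadian genes 11 were higher, and their median of -0.07 turned to 0.04 after centring. The nfil3 family split, with nfil3-5 at 8.503 and 9.725 in overfed and 6.80, 6.74 and 7.38 in regular-diet livers (2.14), and nfil3-6 at 9.80 and 8.90 in overfed and 11.13, 11.43 and 10.66 in regular-diet livers (-1.73). Neither passed (limma, adjusted p = 0.15 and 0.0884). In the antioxidant list 9 of 22 were higher, and keap1a, which holds the antioxidant regulator NRF2 in check, had 9.62 and 10.42 in overfed and 7.90, 8.82 and 8.43 in regular-diet livers (1.64; limma, adjusted p = 0.122). Bile acid genes had 4 measured members, 1 of them higher, and 6 of 14 hepatocyte transcription factor genes were higher, and no member of either list passed.

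Just beyond the threshold, the 10 higher and 10 lower genes with the smallest p among those not called are given as values. The higher ones had adjusted p of 0.052 to 0.0787 in limma. They were slc13a5a (1.89), a citrate transporter gene with 10.59 and 10.19 in overfed and 8.05, 8.53 and 8.92 in regular-diet livers, and rabac1, zfand6, tat, slc27a6, kdm5ba, hnrnpd, psmd1, nudt5 and oaz1b, with differences of 0.66 to 1.89. The lower ones had adjusted p of 0.0514 to 0.0903. They were camk2d1, a calcium-dependent kinase gene with 6.30 and 6.69 in overfed and 7.71, 7.97 and 7.82 in regular-diet livers (-1.34), and lpin1a, mycb, map2k6, gyg1a, khdrbs1a, hmgn1b, enc3, nfil3-6 and rrm2l, with differences of -4.11 to -0.61.

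Several of the largest differences rested on 1 overfed liver or on a few livers. The yolk precursor gene vtg2 had 13.46 on overfed array 1 and 7.30 on overfed array 4, against 5.46, 5.01 and 5.31 in regular-diet livers (5.12 ± 2.46, SE; limma, adjusted p = 0.37). For vtg3 and vtg4 overfed array 1 stood at 11.06 and 12.69 and overfed array 4 at 5.42 and 6.97, against 4.54 to 4.92 and 6.61 to 6.75 in regular-diet livers. The mean over the 3 vitellogenin probe sets was 12.40 on overfed array 1, and of the 14 arrays only regular-diet ahcy+/+ array 9 was higher, at 13.90. The oestrogen receptor gene esr1 had 6.45 and 6.23 in overfed and 5.54, 5.37 and 5.72 in regular-diet livers, a difference of 0.80 that did not pass, and its other probe set differed by 0.34. The gene sat2a.2 had 3.09 and 3.04 in overfed and 11.35, 10.62 and 6.54 in regular-diet livers, a fitted difference of -6.44 ± 2.52 (SE; limma, adjusted p = 0.284). Both overfed values of sat2a.2 lie under the filter level of 4, so that the size of this difference is uncertain. In ahcy+/+ livers it was as uneven, at 2.92, 2.96, 2.93, 12.12 and 9.70 after overfeeding and 2.89, 6.24, 3.31 and 3.53 on the regular diet. The intestinal gene fabp2 had 9.10 and 5.24 in overfed and 9.91, 12.74 and 10.54 in regular-diet livers (-3.90), and plac8.1 differed by -3.43 with its highest value, 11.53, on regular-diet array 7.

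By the count of probe sets far apart, the 2 overfed ahcy+/- livers were no more unlike each other than the regular-diet ones were. They lay at least 1 (log2) apart for 529 probe sets (3.5%), 276 higher (1.82%) and 253 lower (1.67%) on array 1, against 760 (5.02%), 575 (3.8%) and 862 (5.7%) for the 3 pairs of regular-diet ahcy+/- livers. Higher on array 1 were the vitellogenins and the pancreatic enzymes, such as cpa1 with 10.60 on array 1 and 5.0 on array 4. The means of both marker lists lay further apart on the overfed arrays than on any pair of regular-diet ahcy+/- arrays. Those of the intestine list lay closer together than on any such pair. The largest excesses on array 4 were those of the class I histocompatibility gene mhc1ufa, with 7.19 on array 1 and 11.86 on array 4, and of the neutrophil peroxidase gene mpx, with 4.66 and 9.28 in the same order on 1 probe set. The mean of 9 leukocyte markers was 6.998 on array 1 and 8.040 on array 4, against 7.443, 8.123 and 7.001 on regular-diet arrays 3, 7 and 8, so array 4 lay within the regular-diet range. Also higher on array 4 were the phosphatase subunit gene ppp1r15a, with 7.80 on array 1 and 10.03 on array 4, and the immediate early gene junbb, named like mhc1ufa and mpx after its values were seen, with 10.18 on array 1 and 12.17 on array 4. The regular-diet livers had 7.81, 6.96 and 6.89 for ppp1r15a and 10.48, 10.25 and 10.28 for junbb, so for both genes array 4 alone stood above the regular diet.

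The same diet comparison in ahcy+/+ livers uses other arrays from the same tanks. There 681 of 15134 probe sets passed in limma (4.5%), 465 higher (3.07%) and 216 lower (1.43%), with more arrays a group. At an unadjusted p under 0.05 there were 2980 (19.7%), 1649 higher (10.9%) and 1331 lower (8.79%). All 15 probe sets called in ahcy+/- were among them, which is every one of the ahcy+/- calls and 2.2% of the ahcy+/+ calls. In a fit of the 9 ahcy+/+ arrays alone, which does not share its spread with the ahcy+/- arrays, 14 of the 15 passed and trim47 did not (limma, adjusted p = 0.0744). In ahcy+/+ livers the 10 higher probe sets also lay above every regular-diet array (4.75% of all did) and the 5 lower ones below (3.92% of all did). The differences were close for egln3 (3.72 in both genotypes), p4ha1b (2.23 in ahcy+/- and 2.13 in ahcy+/+), hif1an (1.81 and 1.97 in the same order) and plod1a (1.22 and 1.06). Other calls were further apart, such as limk2 (1.81 and 1.17), trim47 (-0.93 and -0.42), cyp2r1 (-3.17 and -3.90) and apoda.2 (-4.47 and -1.82), with no interaction that passed. For 6 of the 15 probe sets both overfed ahcy+/- arrays lay within the range of the 5 overfed ahcy+/+ arrays, for 7 only 1 did, and for trim47 and mid1ip1l neither did.

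Read the other way, most genes called in ahcy+/+ differed the same way in ahcy+/-. Of the 465 higher in ahcy+/+, 459 (98.7%) were higher in ahcy+/- (36.9% of all probe sets were), and 389 (83.7%) lay above every regular-diet ahcy+/- array on both overfed arrays (12.2% of all did). Taken by themselves, overfed arrays 1 and 4 lay above the regular-diet ahcy+/- mean for 445 and 456 of the 465. Of the 216 lower in ahcy+/+, 213 were lower in ahcy+/- and 179 (82.9%) lay below every regular-diet ahcy+/- array (19.9% of all did). These 465 and 216 come from a fit that shares its spread with the ahcy+/- arrays. A fit of the ahcy+/+ arrays alone called 387 higher and 201 lower. Of the 387, 301 (77.8%) lay above every regular-diet ahcy+/- array, and of the 201, 139 (69.2%) lay below. The median difference of the 465 was 0.68 in ahcy+/- and 0.79 in ahcy+/+, and that of the 216 was -0.57 and -0.74 in the same order. Of the 12 largest increases among the genes called in ahcy+/+, all were higher in ahcy+/-, by 1.48 to 3.72, and 10 kept the groups apart there, the exceptions being ppp1r15a and ppdpfa. Of the 12 largest decreases, all were lower in ahcy+/-, by -4.47 to -1.35, and 11 kept the groups apart, the exception being rbm25a. Over all 15134 probe sets, which share libraries and are not independent, Pearson's r between the diet differences of the 2 genotypes was 0.73.

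**Figure D4:**
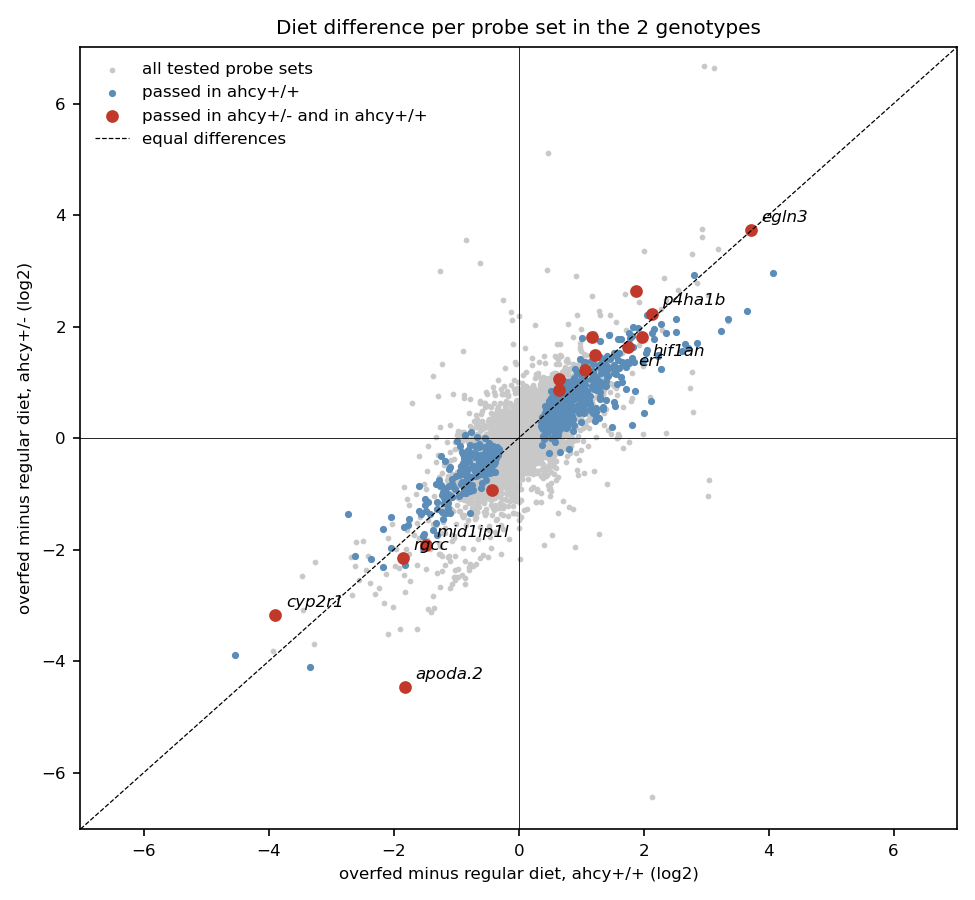
Log2 difference between overfed and regular-diet livers for each of 15134 probe sets, in ahcy+/- (vertical axis) against ahcy+/+ (horizontal axis), with probe sets that passed in ahcy+/+ in blue and the 15 that passed in both genotypes in red. Of the red points apoda.2 lies farthest from the dashed line of equal differences, at -4.47 in ahcy+/- and -1.82 in ahcy+/+. Others lie off the line to a lesser degree, such as cyp2r1 at -3.17 and -3.90 in the same order.

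Whether the diet difference itself was unlike in the 2 genotypes was tested as an interaction. No probe set passed in limma (0 of 15134, 0.0%), and 289 had an unadjusted p under 0.05 (1.91%), 87 with a higher (0.575%) and 202 with a lower (1.33%) difference in ahcy+/- than in ahcy+/+. Leaving out overfed array 1 gave 4 calls, 2 of them unnamed probe sets and the others foxd5 and the immunoglobulin light chain gene igl1c1, both named after their values were seen, and no other single array gave a call. Genes were ranked by unadjusted p among probe sets assigned to exactly 1 gene whose symbol is no clone or locus placeholder. In that ranking the smallest p belonged to ifi44a6, an interferon-induced gene family member. It had 4.19 and 5.67 in overfed and, under the filter level of 4, 3.41, 3.74 and 2.98 in regular-diet ahcy+/- livers, against 3.40 to 4.66 in overfed and 4.16 to 5.11 in regular-diet ahcy+/+ livers. The interaction was 2.45 (unadjusted p = 0.000642, adjusted p = 0.9996 in limma).

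Next came pemt, which encodes the methyltransferase that makes phosphatidylcholine with S-adenosylmethionine in liver. It had 6.58 and 6.45 in overfed and 7.14, 6.81 and 7.11 in regular-diet ahcy+/- livers, against 6.48 to 7.27 in overfed and 6.08 to 6.46 in regular-diet ahcy+/+ livers. The differences were thus -0.51 in ahcy+/- and 0.55 in ahcy+/+, with an interaction of -1.05 (unadjusted p = 0.0011). The hepatocyte transcription factor gene hnf4a showed the same kind of pattern on 1 probe set, at 6.60 and 6.75 in overfed and 6.89 to 6.97 in regular-diet ahcy+/- livers, against 7.51 to 8.25 in overfed and 6.84 to 7.26 in regular-diet ahcy+/+ livers. Its interaction was -0.92 (unadjusted p = 0.00229), and a second hnf4a probe set gave 0.39. The other genes with the smallest p were dact2 (-0.64), gtf3c2 (-0.63), ftsj1 (0.92), trim55b (-0.56), sec22a (0.93), tfb2m (-0.76) and clcn7 (0.77). Of these, dact2 lay above the filter level of 4 only on the regular-diet ahcy+/- arrays, at 4.31 to 4.38. Its overfed ahcy+/- values were 3.86 and 3.61, so the size of its interaction is uncertain. None of the genes with the smallest interaction p passed, which at 2 overfed ahcy+/- arrays does not show that the genotypes responded alike.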

How the data were processed

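Per the labels' protocols, adult livers went into RNAlater and their RNA onto 1-colour arrays. The values used are log2 levels per probe set as deposited by the authors; that scale was read from their range (0.464 to 14.738). The submitters' processing notes list GCRMA and Partek without saying what each did. Of 15617 probe sets, 115 controls and 368 not above 4 on 2 arrays were left out. Platform annotation gave 10795 probe sets 1 gene, 135 several and 4572 none. In a list, each gene stands by whichever of its probe sets has the highest mean.

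A model with 4 group means over the 14 arrays was fitted in limma 3.58.1 (R 4.3.3; lmFit and eBayes, 10 residual degrees of freedom). Its p-values were adjusted by Benjamini-Hochberg over 15134 probe sets, with a threshold of 0.05. The scripts were tested on simulated data. The number of arrays limits the precision. Lists were described by counts and medians, with no test.

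Named were every gene that passed, the next 10 in each direction by p, the 6 largest changes each way without overlap, ahcy and the oxygen-sensing list, up to 4 members of every other list by p, the 10 smallest interaction p, the 12 largest changes each way among ahcy+/+ calls, and vitellogenins, esr1 and tissue markers. Rankings outside the lists covered only probe sets of exactly 1 gene whose symbol is no clone or locus placeholder. Genes named after their values were seen are marked. The samples, lists and rules were chosen with earlier results of these data known. Alternatives were other filters, moderation, array weights, scalings, covariates, compared arrays alone, leaving out each array and keeping 1 probe set for a gene. Figures were drawn with matplotlib 3.10.9.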

Additional observations from a re-analysis of the deposited data

Results flagged for a closer look

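Among 52 group values tested for a sample far from the rest of its group, 4 stood apart, and chance alone sets apart about 5% of such groups. All 4 lie in ahcy+/+ groups, since the ahcy+/- groups are too small for this check. The gene hif1an stood at 6.893 in overfed ahcy+/+ array 7, below the other 4 overfed ahcy+/+ arrays. The gene plod1a stood at 6.193 in regular-diet ahcy+/+ array 9, above the other 3. The mean level of the vitellogenin and oestrogen list was 8.84 in overfed ahcy+/+ array 2 and 11.66 in regular-diet ahcy+/+ array 9, each above the rest of its group.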

How the results depend on the processing

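All 15 probe sets called for diet in ahcy+/- kept their sign wherever they were measured. Leaving out single arrays could not change these signs, since the overfed and regular-diet ahcy+/- arrays do not overlap for any of the 15. The count of 15 was 17 with no filter, 19 with a filter at 6, 13 with trend and robust moderation and 17 with 1 probe set per gene. It was 0 in a fit of the 5 compared arrays alone (1768 at an unadjusted p under 0.05 in limma), which has fewer arrays to estimate the spread, 80 with array weights, 31 after quantile normalization and 64 after centring (58 higher, 6 lower). It was 27 with the mean vitellogenin level as a covariate (14 higher, 13 lower), 58 when overfed ahcy+/- array 1 and regular-diet ahcy+/+ array 9, the highest in vitellogenin, were both left out (20 and 38), and 58 with pancreas and intestine marker levels as covariates, a setting chosen after seeing the data. Leaving out single arrays gave 0 to 91. The ahcy+/+ count of 681 was 1949 with array weights, 1090 with the vitellogenin covariate, 1261 without those 2 arrays and 253 to 1341 without single arrays. The interaction count of 0 was 1 with no filter, 3 without those 2 arrays and 0 to 4 without single arrays. Probe sets below every regular-diet ahcy+/- array numbered 3006, and 1644 after centring. The ahcy difference was 0.14 after centring. The causes were not tested. No paired analysis was possible because the 2 ahcy+/- groups share no replicate number (1 and 4 against 3, 7 and 8).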
